A study of Mus musculus with 3 samples.

Results

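The aminoacyl-tRNA synthetases were examined as 36 genes, 20 whose enzymes act in the cytosol and 16 whose enzymes act in mitochondria, of 55536 annotated genes in the tables. The rule is by symbol and uses no measured value of these genes. The gene names are those of the tables except Mars1, which is listed there under its synonym Mars.

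Each synthetase joins an amino acid to the tRNAs that carry its anticodon, and so supplies the charged tRNA that ribosomes use. Mitochondria translate their own few mRNAs with a separate set of enzymes that are encoded in the nucleus and imported, whereas Gars and Kars each encode both the cytosolic and the mitochondrial enzyme. In animal cells 8 of the cytosolic synthetases, Dars, Eprs, Iars, Kars, Lars, Mars1, Qars and Rars, are held with 3 scaffold proteins in the multisynthetase complex. When amino acids run short, the transcription factor Atf4 raises many of the cytosolic synthetases through a short promoter element, the C/EBP-ATF response element (CARE).

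Total RNA of the cytosol of primary C57BL/6J bone-marrow-derived macrophages, grown from marrow precursors in culture, was sequenced after depletion of rRNA. All cells had received Lipid A, a ligand of Toll-like receptor 4, at 100 ng/ml for 12 h, a washout of 12 h, and Lipid A again at 100 ng/ml for 30 min. The labels form 1 group of 3 biological replicates with 1 µg of RNA per library and the same donor entry. SDs therefore cover the variation among these preparations alone, part of which may be technical. The p-values of the chi-square test given below set differences between these libraries against counting error only. With 1 group there was no untreated or whole-cell sample to set beside these values, and less RNA per cell cannot be told apart from a smaller share of cells expressing a gene.

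Annotated genes held 28759407, 54709008 and 49878183 expected counts in replicates 1, 2 and 3. All 8 macrophage markers were detected, with a summed level of 4812 to 5079 TPM, from Itgam at 31.6 ± 11.7 TPM to Lyz2 at 3194 ± 13.1 TPM (SD, n = 3). The 11 markers of other cells summed to between 0.16 and 0.22 TPM, and Ly6g, Retnlg and Hbb-bs had 0 counts in every library. TPM is the share of transcripts in a library after division by length, so levels are compared between genes on that scale.

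All 20 cytosolic synthetases were detected, at 1 TPM or more in every library, against 11 of the 16 mitochondrial ones. Of 22015 nuclear protein-coding genes, 41.2% reached that limit. The median of the cytosolic set was 18.8, 18.2 and 17.6 TPM in replicates 1, 2 and 3, and that of the mitochondrial set was 1.83, 2.27 and 2.02 TPM. The cytosolic median lay above, and the mitochondrial median below, the median of the detected nuclear protein-coding genes, 8.25 ± 0.218 TPM. The mitochondrial median is over all 16 members, detected or not. Over all 22015 nuclear protein-coding genes, detected or not, the median was 0.143 ± 0.0115 TPM, below that of both sets. On the scale of log2(TPM + 1) the set medians differed by 2.66 ± 0.13 (SD, n = 3), or 6.31-fold in TPM + 1. The added 1 makes this fold smaller than that between the medians in TPM. The cytosolic set was higher in 3 of 3 libraries. A two-sided sign-flip test over 3 libraries cannot go below an exact p of 0.25, so no test is given. In sum, the 20 cytosolic genes held 372, 356 and 341 TPM and the 16 mitochondrial genes 42.1, 44.2 and 44.0 TPM.

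**Figure D1:**
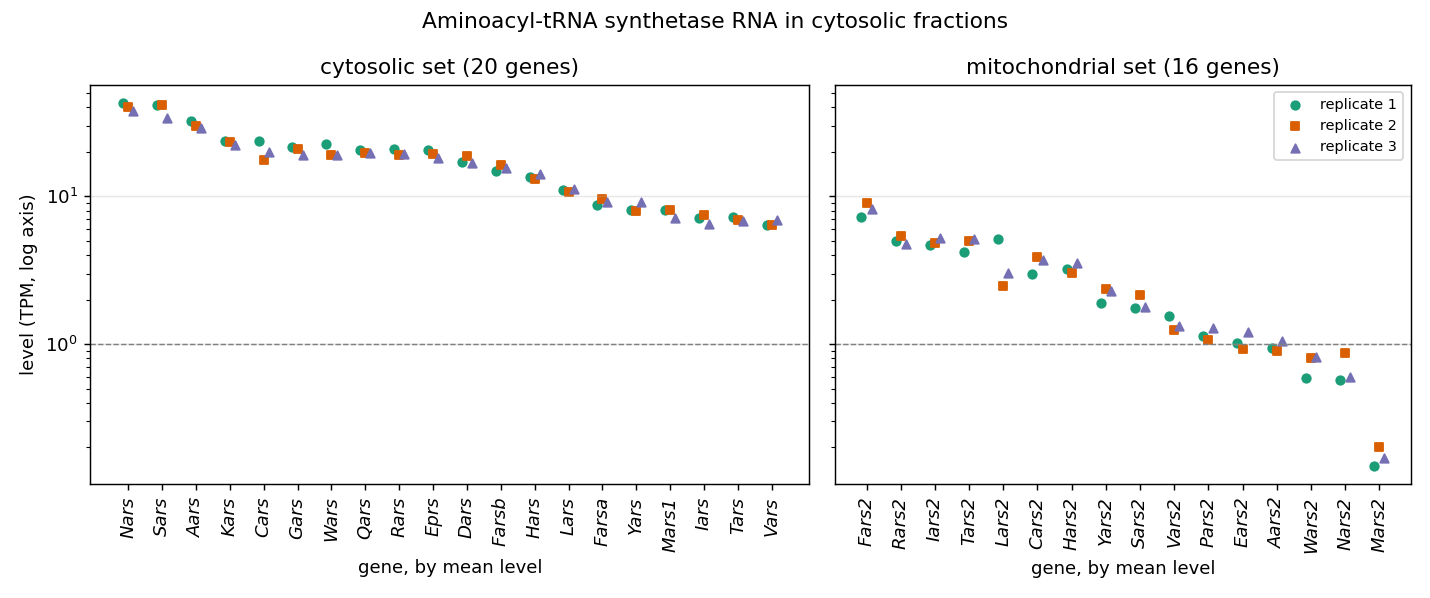
Level of each synthetase in TPM (log axis) in the 3 libraries, cytosolic set on the left and mitochondrial set on the right, each ordered by mean; the dashed line is the detection limit of 1 TPM. The cytosolic genes run from 40.3 down to 6.55 TPM in mean, the mitochondrial genes from 8.14 down to 0.173 TPM.

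Among the cytosolic genes the asparaginyl enzyme Nars (ENSMUSG00000024587.10, mm10 chromosome 18, 64499647 to 64516652, minus strand) was highest, with 42.7, 40.4 and 37.7 TPM in replicates 1, 2 and 3. The seryl enzyme Sars (ENSMUSG00000068739.13, chromosome 3, 108424865 to 108445209, minus strand), which also charges the tRNA for selenocysteine, followed with 41.6, 41.5 and 33.8 TPM. The alanyl enzyme Aars (ENSMUSG00000031960.14, chromosome 8, 111033144 to 111057664, plus strand) had 32.4, 29.8 and 29.0 TPM. Nars and Sars overlapped over the libraries, whereas Aars lay below both and above every other synthetase. Nars stood at the 87.4th percentile of the detected protein-coding genes.

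A group of close levels came next. Kars, the lysyl enzyme, was at 23.0 ± 0.611 TPM, Cars, the cysteinyl enzyme, at 20.4 ± 3.16 TPM, and Gars, the glycyl enzyme, at 20.4 ± 1.35 TPM. Wars, the tryptophanyl enzyme known in human cells for its induction by interferon, was at 20.2 ± 1.91 TPM. Qars, Rars and Eprs, the glutaminyl, arginyl and fused glutamyl-prolyl enzymes of the multisynthetase complex, were at 19.9 ± 0.448, 19.8 ± 1.02 and 19.4 ± 1.15 TPM. The aspartyl enzyme Dars closed the group at 17.6 ± 1.05 TPM. Each of these genes overlapped its neighbour in the order. Kars lay above all values of Gars, Qars, Rars, Eprs and Dars, and Eprs was above Dars in 3 of 3 libraries.

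Below them Farsb, the beta chain of the phenylalanyl enzyme, stood at 15.6 ± 0.747 TPM, Hars, the histidyl enzyme, at 13.6 ± 0.592 TPM, and Lars, the leucyl enzyme that is also a leucine sensor, at 10.95 ± 0.283 TPM. These 3 did not overlap each other. Farsa, the alpha chain that pairs with Farsb, was at 9.15 ± 0.415 TPM and lay below Farsb in all 3 libraries. The lowest cytosolic genes were Yars, the tyrosyl enzyme, at 8.41 ± 0.642 TPM, Mars1, the methionyl enzyme, at 7.73 ± 0.528 TPM, Iars, the isoleucyl enzyme, at 7.05 ± 0.514 TPM, Tars, the threonyl enzyme, at 7.00 ± 0.238 TPM, and Vars, the valyl enzyme, at 6.55 ± 0.279 TPM. From Farsa to Vars each gene overlapped the next. Over the whole set 13 of 19 neighbours overlapped, and the mean levels spanned 6.15-fold.

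The mitochondrial genes spanned more, 46.9-fold in mean TPM. The phenylalanyl enzyme Fars2 (ENSMUSG00000021420.13, chromosome 13, 36117412 to 36726280, plus strand) was highest with 7.25, 8.96 and 8.20 TPM and did not overlap the others. That rank did not hold over transcripts annotated as protein coding alone, a comparison added after the values were seen. There Fars2 was at 4.04 ± 0.367 TPM, below Iars2 at 4.86, Rars2 at 4.86 and Tars2 at 4.34 TPM in mean. The levels that follow are again over all transcripts. Rars2 at 5.05 ± 0.342 TPM, Iars2 at 4.91 ± 0.287 TPM, Tars2 at 4.78 ± 0.508 TPM, Lars2 at 3.54 ± 1.40 TPM, Cars2 at 3.52 ± 0.465 TPM and Hars2 at 3.27 ± 0.242 TPM formed a chain of overlapping neighbours. Yars2 at 2.18 ± 0.242 TPM and Sars2 at 1.90 ± 0.225 TPM followed. Vars2, Pars2, Ears2 and Aars2 lay between 1.37 and 0.963 TPM in mean.

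Wars2 at 0.740 ± 0.130 TPM, Nars2 at 0.680 ± 0.165 TPM and Mars2 (ENSMUSG00000046994.9, chromosome 1, 55237177 to 55248470, plus strand) at 0.173 ± 0.0252 TPM were below 1 TPM in every library. Ears2 and Aars2 were below it in some. None of these 5 lacked reads: Mars2, the lowest in TPM, had 77, 221 and 154 expected counts in replicates 1, 2 and 3. Nars2 had 77, 202 and 163. The effective length of Mars2 was 11071 bases, beside a median of 2406.5 over the mitochondrial set. Its rank in TPM and the 46.9-fold span depend on that length. Of the 20 cytosolic genes, 14 exceeded in every library the highest mitochondrial value in any library, 8.96 TPM.

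The enzymes for a single amino acid were then set against each other within each library. In all 16 pairs the cytosolic gene was higher in 3 of 3 libraries, and in 13 pairs the mean difference of log2(TPM + 1) exceeded 3 SD. The size of the ratio differed widely between amino acids, with a median over the pairs of 5.39.

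**Figure D2:**
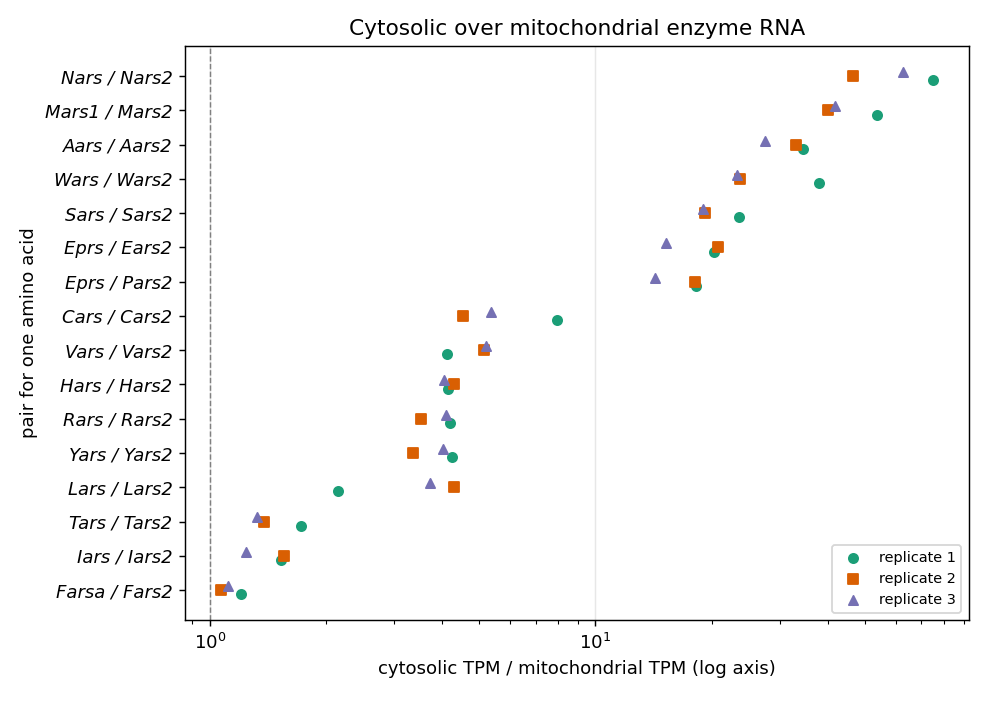
Ratio of cytosolic to mitochondrial TPM (log axis) for the 16 pairs in the 3 libraries, ordered by mean ratio; the dashed line marks equal levels. In 7 pairs the ratio exceeded 10 in every library, and in 3 pairs, Tars, Iars and Farsa, it stayed under 2.

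The widest ratio was that of asparagine. Nars exceeded Nars2 by 74.9, 46.5 and 62.9 times in replicates 1, 2 and 3, which on the log2(TPM + 1) scale was 4.62 ± 0.17. Mars1 exceeded Mars2 by 45.2 ± 7.37 times. Before division by length their mean expected counts were 1251 and 151, at effective lengths of 2119 and 11071 bases. Aars exceeded Aars2 by 31.7 ± 3.64 times and Wars exceeded Wars2 by 28.3 ± 8.41 times. Sars exceeded Sars2 by 20.6 ± 2.61 times. Eprs, whose protein charges both glutamate and proline, exceeded Ears2 by 18.8 ± 3.10 times and Pars2 by 16.8 ± 2.24 times. These 7 pairs had ratios above 10 in every library.

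A middle group of 6 pairs had mean ratios between 3.39 and 5.96. Cars exceeded Cars2 by 5.96 ± 1.79 times and Vars exceeded Vars2 by 4.82 ± 0.602 times. Hars exceeded Hars2 by 4.16 ± 0.131 times, the ratio with the smallest spread on the log scale, 0.03 (SD). The remaining ratios of this group were 3.94 ± 0.358 for arginine, 3.88 ± 0.463 for tyrosine and 3.39 ± 1.11 for leucine.

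For phenylalanine, isoleucine and threonine the enzymes of both compartments were close. The Farsa to Fars2 ratio was 1.21, 1.07 and 1.12, the Iars to Iars2 ratio 1.53, 1.56 and 1.24, and the Tars to Tars2 ratio 1.73, 1.39 and 1.32. None of the 3 differences exceeded 3 SD on the log2(TPM + 1) scale. Farsb, the other chain of the cytosolic phenylalanyl enzyme, exceeded Fars2 by 1.92 ± 0.118 times. Over transcripts annotated as protein coding alone, a comparison added after the values were seen, Farsa exceeded Fars2 by 2.06 ± 0.285 times and Cars exceeded Cars2 by 9.57 ± 3.07 times. The cytosolic gene stayed higher in all 16 pairs on that count.

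The members of the multisynthetase complex and the other 12 cytosolic genes had close medians. They were 18.4 ± 0.755 and 17.4 ± 0.661 TPM, a difference of 0.08 ± 0.06 in log2(TPM + 1). The list means differed in the other direction, by -0.15 ± 0.03. Within the complex the levels ran from Iars at 7.05 TPM to Kars at 23.0 TPM. Of the scaffold genes, Aimp1, which also gives rise to a secreted cytokine, was at 13.0 ± 0.782 TPM, whereas Aimp2 was at 2.72 ± 0.248 TPM and Eef1e1 at 2.97 ± 0.795 TPM. Aimp2 and Eef1e1 thus lay below all 8 synthetases of the complex in every library.

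Several members could share reads with an overlapping neighbour. Whether counting used strand is not given in the sources used here. The head-to-head genes Hars and Hars2 overlap by 198 bases on opposite strands of chromosome 18, and Mars1 and Ddit3, the stress factor CHOP, overlap by 68 bases at their ends on chromosome 10. Ddit3 was at 113.6 ± 15.8 TPM, many times the level of Mars1. In all, 9 members had an antisense neighbour with at least 100 expected counts in every library, Cars2, Ears2, Fars2, Hars, Hars2, Iars2, Mars1, Wars and Yars. Their levels are uncertain to that extent.

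Most synthetase RNA was assigned to transcripts annotated as protein coding, but not for every gene. In 12 of 20 cytosolic and 7 of 16 mitochondrial members such transcripts took at least 90% of the gene's TPM in every library, beside 65.9% of 9068 detected nuclear protein-coding genes. They took under 50% in every library for Qars and Cars2, beside 3.82% of those genes.

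Qars (ENSMUSG00000032604.16, chromosome 9, 108507706 to 108515941, plus strand) has 34 annotated transcripts. Those annotated as targets of nonsense-mediated decay, the pathway that degrades mRNAs with an early stop codon, took 49.3%, 55.9% and 60.5% of its TPM in replicates 1, 2 and 3. Protein-coding transcripts took 38.8%, 31.4% and 25.8%, so the decay class was the larger in every library. Most of the decay class was Qars-231, with a reading frame of 100 codons against 751 in the coding transcript Qars-203. Qars-231 stood at 9.38, 8.65 and 9.19 TPM and Qars-203 at 5.21, 4.53 and 3.60 TPM. The second quantification put the decay class at 50.4%, 51.1% and 59.0%.

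**Figure D3:**
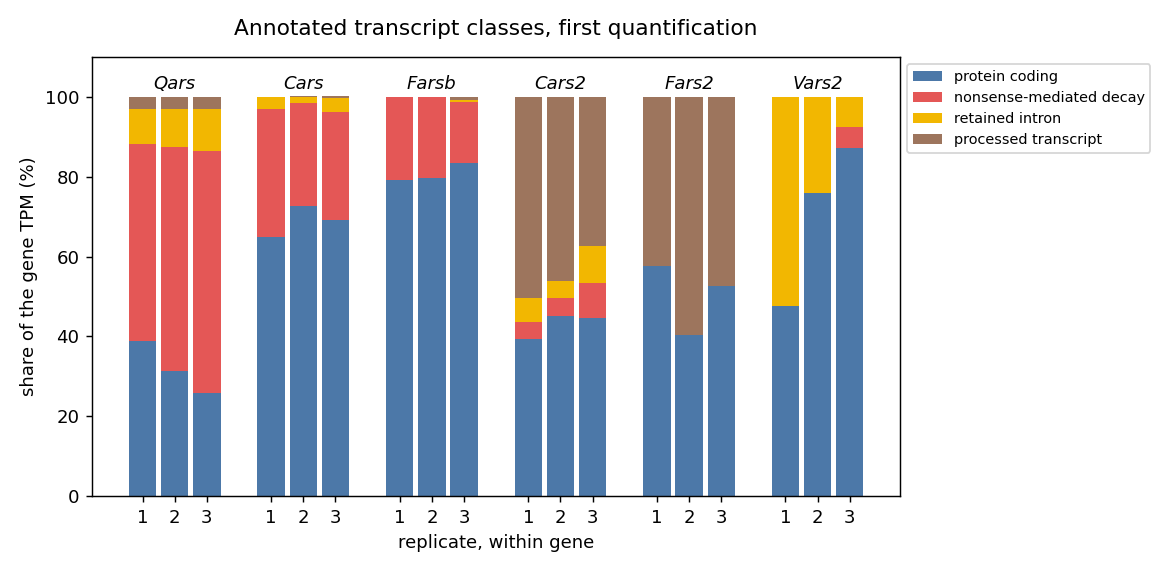
Share of each gene's TPM (%) by annotated transcript class for 6 members in replicates 1, 2 and 3, as stacked bars from 0. Decay-annotated transcripts were the largest class of Qars in every library, and processed transcripts took 37.3% to 50.3% of Cars2; the Vars2 shares differed widely between libraries.

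In Cars the decay-annotated transcript Cars-211 took 32.1%, 25.9% and 27.0% of TPM, and in the second quantification 21.0%, 14.2% and 10.8%. In Farsb the decay-annotated Farsb-204 took 20.8%, 20.4% and 15.2%. Cars2 and Fars2 had large shares in processed transcripts, which have no annotated reading frame, with 50.3%, 46.1% and 37.3% for Cars2 and 42.3%, 59.6% and 47.4% for Fars2. Most of the Fars2 share was Fars2-206, at 2.43, 4.52 and 3.01 TPM. In Vars2 retained-intron transcripts took 52.3%, 24.2% and 7.58%, so its class shares were not stable over the libraries. Vars2 is also low, at 173, 418 and 428 expected counts.

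The isoforms of the enzymes with a role in both compartments were read from the coding transcripts. Kars-201, with 595 codons, held 21.0, 19.3 and 19.5 TPM. Kars-202 and Kars-203, with 624 codons, together took 9.91%, 15.4% and 11.7% of Kars TPM, and 10.8%, 17.1% and 13.8% in the second quantification. The longer form of this enzyme is the one known to carry the mitochondrial import sequence, and it was the minor form in every library. Gars had a single coding transcript of 729 codons, Gars-201, which held at least 99.8% of its TPM, so forms for the cytosol and for mitochondria were not separated by transcript. Wars-201, with 475 codons, held 87.9%, 84.5% and 84.4% of Wars.

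Lars2 (ENSMUSG00000035202.8, chromosome 9, 123366927 to 123462666, plus strand), the mitochondrial leucyl enzyme, was the least certain member. It stood at 5.12, 2.48 and 3.01 TPM in the first quantification and at 16.5, 4.35 and 9.93 TPM in the second. The other 35 members were 1.51 to 2.61 times lower in the second quantification, with a median over the 36 genes of 2.26, whereas Lars2 was higher there in every library. With the second values Lars exceeded Lars2 in replicate 2 alone, at ratios of 0.316, 1.12 and 0.341, and 15 of 16 pairs kept the cytosolic gene higher in every library.

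The excess was carried by transcripts that are not protein coding. The coding transcript Lars2-201 was at 2.51, 2.36 and 2.29 TPM in the second quantification, while the decay-annotated Lars2-209 was at 8.77, 0.00 and 7.24 TPM and the retained-intron transcript Lars2-205 at 5.20, 1.96 and 0.290 TPM. In the first quantification Lars2-201 held 4.49, 2.45 and 2.86 TPM. Lars2-201 shares 72 bases at 98.6% identity with the noncoding RNA Gm15564-202 and 196 bases at 80.1% with AA474408-201. Lars2-201 shares no stretch with the mitochondrial rRNA mt-Rnr2 at an e-value of 1e-05. Sharing is given for Lars2-201 alone, not for Lars2-209 or Lars2-205. By replicate, the second quantification gave AA474408 3.27, 0.848 and 1.42 TPM, the same order of libraries as Lars2. Gm15564 had 0.128, 0.152 and 1.95 TPM there, a different order. In expected counts AA474408 had only 4, 8 and 26, and Gm15564 had 0 in every library. mt-Rnr2 had 321, 119 and 224 expected counts and mt-Rnr1 282, 117 and 262, both lowest in replicate 2. In TPM of the first quantification, mt-Rnr2 was at 4.96, 0.88 and 1.95, lowest in the library where the TPM of Lars2 was lowest. In the second quantification mt-Rnr2 was at 8.09, 2.69 and 31.2 TPM. It was again lowest in replicate 2 but highest in replicate 3, whereas Lars2 was highest in replicate 1. The part of any of these in the Lars2 values was not tested.

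**Figure D4:**
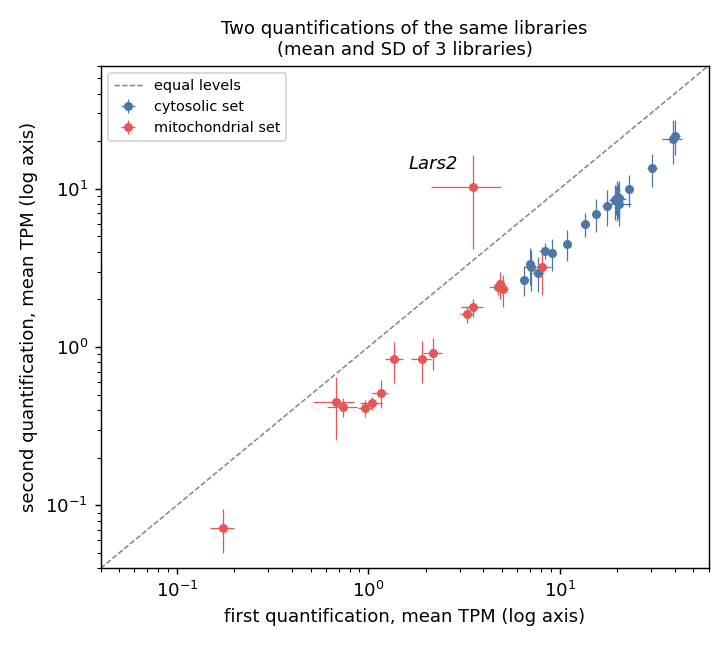
Mean TPM of the 36 members in the first (horizontal) and second (vertical) quantification of the same 3 libraries, both on log axes, with bars for the SD over libraries; the dashed line marks equal levels. Lars2 is the only one of the 36 above the line.

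The libraries were next compared with each other. Of the 36 members, 22 differed between libraries by more than counting noise (chi-square test of homogeneity, Benjamini-Hochberg adjustment over 12732 genes, threshold 0.05), 15 of 20 cytosolic and 7 of 16 mitochondrial. This was 61.1% of the members, beside 64.7% of all genes tested. Among genes with a mean count of 100 to 1000, which held 15 of the mitochondrial members, the share was 55.7%, and among genes with a mean count of 1000 to 15000, which held all 20 cytosolic members, the share was 83.6%. Without replicate 3 the count of members fell to 12, while 42.9% of all genes were then called.

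The biological coefficient of variation (edgeR, intercept alone) had a median of 0.115 over the 36 members, 0.106 over the cytosolic and 0.166 over the mitochondrial set, beside 0.134 over all genes tested. At a mean count of 1000 to 15000 the median over all genes was 0.110, and at 100 to 1000 it was 0.149, where the 15 mitochondrial members had 0.167. Lars, Vars and Hars were among the members for which no difference beyond counting noise was found, with an adjusted p of 0.835, 0.459 and 0.244 by the chi-square test. Lars2 had the highest coefficient, 0.217, and was higher in replicate 1 than the mean of the others by a log2 of 0.87 (adjusted p = 1.89e-49 by the chi-square test).

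Replicate 3 held less of most cytosolic synthetases, by small amounts. Relative to the mean of the other libraries, in counts scaled by TMM to CPM, reads per 1000000,, 18 of 20 cytosolic genes stood lower in replicate 3 (median log2 -0.11), as did 5 of 16 mitochondrial genes (median 0.06). Over all genes tested 51% were lower and the median was -0.01. Of the cytosolic genes 11 of 20 were both lowest in replicate 3 and called by the chi-square test, beside 23.4% of all genes tested. That share was not taken for the count range of the cytosolic genes. In that range 83.6% of genes were called, beside 64.7% of all genes tested, so 23.4% is not a matched background.

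The lists used here were drawn up with earlier results of these data known, so their counts are descriptions. The 12 cytosolic genes listed as Atf4 targets were lower in 11 cases, with a median of -0.16. Sars had 122, 127 and 103 scaled CPM in replicates 1, 2 and 3, a log2 of -0.27 for replicate 3 (adjusted p = 1.53e-29 by the chi-square test). Iars had 51.0, 55.7 and 42.3, a log2 of -0.33 (adjusted p = 9.89e-21 by the same test). Mars1 followed at -0.22, Gars at -0.19, Nars at -0.17, Eprs and Tars at -0.16, Wars at -0.15 and Aars at -0.12. Cars, at -0.06, was lowest in replicate 2, and Yars was the exception, higher by 0.07. Lars differed by -0.02.

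The other 8 cytosolic genes were lower in 7 cases, with a smaller median of -0.07, from Qars at -0.14 to Hars at 0.07. The difference between both lists was not tested. In replicate 1, 15 of 16 mitochondrial genes were lower than the mean of the others, with a median of -0.16, and Lars2 was the exception. In the same library 15 of 20 cytosolic genes were higher, with a median of 0.07, among them 11 of the 12 listed Atf4 targets. Over all genes 6615 of 12732 were lower in replicate 1. Replicate 1 is the shallowest library.

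**Figure D5:**
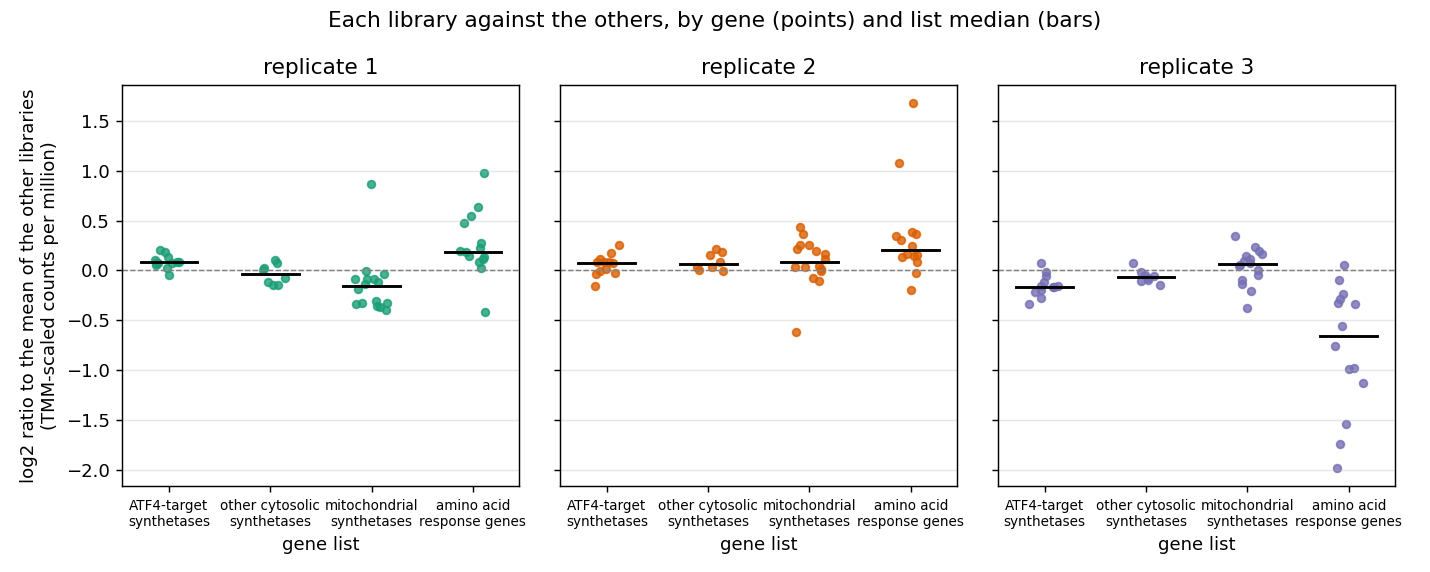
Log2 ratio of each library to the mean of the others (TMM-scaled CPM), by gene (points) and list median (bars), for Atf4-target, other cytosolic and mitochondrial synthetases and for amino acid response genes. In replicate 3 the list medians are -0.16, -0.07, 0.06 and -0.65.

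Genes of the amino acid response were also low in replicate 3, by larger amounts. Of 14 such genes, 13 stood lower in replicate 3 (median log2 -0.65), and 12 of them were lowest there and called by the chi-square test. Atf4 itself had 286, 280 and 225 scaled CPM in replicates 1, 2 and 3, a log2 of -0.33, and Ddit3 had 142, 134 and 110, also -0.33. The phosphatase subunit Ppp1r15a, which reverses the arrest of translation and is also an early response gene, had 276, 397 and 101, a log2 of -1.74. Slc3a2, the heavy chain shared by several amino acid transporters and the highest of the list at 132.5 ± 14.1 TPM, was the exception at 0.06.

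Of the lowest genes of the list, the cystine transporter Slc7a11 had 7.16, 16.2 and 2.95 scaled CPM, a log2 of -1.98, and the glutathione-degrading enzyme Chac1 had 5.07, 3.66 and 1.49, a log2 of -1.55. Macrophage markers differed between libraries too: Cd14 stood at 191, 315 and 167 scaled CPM and Itgam at 244, 153 and 319. The part of such differences in the synthetase values was not tested.

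The promoter windows of the members were searched for CARE, since the list of Atf4 targets was among those described. RefSeq windows of 300 bases, 250 before to 50 after the annotated start (GRCm38.p6), were matched for 27 of the 36 members. Searched on both strands as TGATGNAA, CARE was found in 5 of the 27, Aars, Gars, Iars, Tars and Yars, or 18.5%, beside 3.97% of all 32851 windows. All 5 are cytosolic and on the list of Atf4 targets, where 8 of 12 genes had a window. It was found in 0 of 5 other cytosolic and 0 of 14 mitochondrial members with a window, and in 4 of 13 amino acid response genes, Asns, Chac1, Slc7a11 and Trib3. The sites are shown so that the matched letters and their surroundings can be set beside those of Asns, the asparagine synthetase gene that is the textbook target of Atf4. Each line gives 30 bases 5′ to 3′ on the strand of the gene, with the 8 bases of the match in capitals.
Aars: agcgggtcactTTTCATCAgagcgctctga
Gars: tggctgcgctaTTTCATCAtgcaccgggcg
Iars: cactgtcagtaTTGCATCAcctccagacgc
Tars: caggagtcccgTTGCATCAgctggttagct
Yars: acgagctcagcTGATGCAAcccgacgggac
Asns: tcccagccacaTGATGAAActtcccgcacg

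In Aars, Gars, Iars and Tars the match lies on the strand opposite to the gene, and in Yars and Asns on the strand of the gene. Counted from the start as base 1, the first base of the match shown was at 10 in Aars (chr8:111033840-111033869), -30 in Gars (chr6:55037960-55037989), 8 in Iars (chr13:49682126-49682155), -15 in Tars (chr15:11399655-11399684), 4 in Yars (chr4:129189895-129189924) and -23 in Asns (chr6:7693214-7693243). In the GENCODE M21 annotation the matches of Iars and Yars lie in an exon of 2 transcripts each. The Aars match lies in an exon of Aars-203 and the Asns match in an exon of Asns-201. The matches of Gars and Tars lie in no exon of the gene. The Gars window is the one among the members whose 250 upstream bases hold the site and no annotated exon of the gene, and is given whole (chr6:55037751-55038000, plus strand).
Gars upstream: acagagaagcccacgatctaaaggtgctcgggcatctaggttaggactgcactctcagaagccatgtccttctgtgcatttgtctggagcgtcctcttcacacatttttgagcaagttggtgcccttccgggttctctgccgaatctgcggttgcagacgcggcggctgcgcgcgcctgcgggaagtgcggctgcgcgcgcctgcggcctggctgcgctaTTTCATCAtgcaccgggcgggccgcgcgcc

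The 5 genes with a match ran from Aars at 30.4 TPM to Tars at 7.00 TPM. In replicate 3 the log2 was -0.12 for Aars, -0.19 for Gars, -0.33 for Iars and -0.16 for Tars, each called by the chi-square test, and 0.07 for Yars, which was not. Sars, at -0.27, Eprs and Mars1 had windows without a match, and Nars, Wars, Cars and Lars of the Atf4 list had no window. Motifs linked to interferon signalling were searched as well. The run GAAANNGAA, part of interferon-stimulated response elements, was found in 1 of 27 members, Qars, beside 8.56% of all windows. TTCNNNGAA, the core of STAT sites, was found in 3, Aars, Kars and Nars2, beside 8.3%. A match describes letters in the window and not a bound site.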

How the data were processed

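Members and lists were chosen with earlier results of these data known. The authors' deposited tables per gene and per transcript give, per the file headers, an expected count, TPM, its interval and the percent of a gene's TPM held by each transcript; these form the first quantification. A second deposited transcript table gives an estimated count and TPM, summed here by gene. Per the text deposited with the libraries, the build was mm10 with GENCODE M21. The sources used here do not give aligner, quantifier, versions or use of strand. Rows naming no annotated gene were dropped; by replicate they held 0.774%, 0.207% and 0.167% of expected counts.

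A gene was called detected at 1 TPM in every library. Differences of set medians and pairs were taken as log2(TPM + 1) within each library; values are mean ± SD of 3 libraries. Expected counts, rounded to whole numbers, went through filterByExpr and TMM scaling with edgeR 4.0.16 (R 4.3.3). Dispersions used an intercept alone. The chi-square test of homogeneity given effective library sizes was run where the mean count reached 10, and its p-values were adjusted by Benjamini-Hochberg; it weighs counting error only. Python 3.11.15, scipy 1.17.1 and blastn 2.17.0 were used, and the test and dispersions were tested on simulated data. All members are named; the related and amino acid response genes come from lists, the latter as the 4 of highest and 2 of lowest level. Asns was named for its promoter. Of the other-cell markers, those at 0 are named. Alternatives were leaving out each replicate, the second quantification, TPM rescaled to nuclear protein-coding genes, other limits and pseudocounts, list means, detected members, leaving out Lars2 or Gars and Kars, Farsb for Farsa, DESeq2 1.42.0 size factors and no filter on low counts; protein-coding transcripts alone was added after seeing the data. Promoter windows came from RefSeq (GRCm38.p6). Some items are not reported here.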

Additional observations from a re-analysis of the deposited data

How the results depend on the processing

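Of 46 alternative values for 7 results, 36 stayed within the replicate spread or within 1.5 times a count. For the median coefficient of variation the spread, 0.0108, was the SD of its values with each replicate left out. Those values, 0.127, 0.124 and 0.107, were thus judged against a spread made from themselves. The difference of the cytosolic and mitochondrial medians, 2.66, kept its sign throughout: 2.19 in the second quantification, 2.99 with TPM rescaled to nuclear protein-coding genes, 3.10 at pseudocount 0.1, 2.17 over detected members, 2.38 for list means, 2.52 without Gars and Kars and 2.47 over protein-coding transcripts alone. The difference between the multisynthetase complex and the other cytosolic genes, 0.08, reversed to -0.15 for list means, so its direction is not settled. Members beyond counting noise, 22, numbered 16, 16 and 12 without replicates 1, 2 and 3. Of all genes, 50.7%, 44.9% and 42.9% were then called. In the second quantification the members called numbered 27, beside 69.1% of all genes. With DESeq2 size factors they numbered 22, beside 64.2%, and without the filter on low counts 23, beside 66.2%. The median coefficient of variation ranged from 0.107 to 0.127. Detected members, 31, ranged from 21 at a limit of 5 TPM to 36 at 0.1 TPM. Genes lower in replicate 3 numbered 23 of 36, and 23 to 25 under other scalings, filters and the second quantification. The cause of each shift was not tested. No paired analysis was possible because there is 1 group. Depth limits the lowest mitochondrial genes, with means of 147 expected counts for Nars2 and 151 for Mars2.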

Other observations

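Genes that act beside the synthetases were lower than the cytosolic set, with exceptions. Of 17 such genes 15 were detected. The elongation factor Eef1a1, which carries charged tRNA to the ribosome, stood at 979.5 ± 80.5 TPM, and its mitochondrial counterpart Tufm at 12.4 ± 0.498 TPM (SD, n = 3). The enzyme that adds the CCA end to tRNAs, Trnt1, was at 10.8 ± 0.725 TPM, and the tRNA exporter Xpot at 8.11 ± 0.333 TPM. Xpot had 76.1, 76.3 and 64.7 TMM-scaled CPM in replicates 1, 2 and 3, lowest in replicate 3 (adjusted p = 1.29e-12 by the chi-square test). Mitochondria form glutaminyl-tRNA with an amidotransferase in place of a synthetase, and its subunits Qrsl1, Gatb and Gatc were at 2.32 ± 0.106, 2.50 ± 0.200 and 6.64 ± 0.358 TPM, within the range of the mitochondrial synthetases. The threonyl enzyme homologue Tarsl2 was at 0.953 ± 0.0416 TPM, below Tars in every library.

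The editing factors, which remove amino acids wrongly joined to a tRNA, ranged from Prorsd1 at 9.25 ± 1.48 TPM to Dtd1 at 1.06 ± 0.270 TPM. Between them were Dtd2 at 4.14 ± 0.125 TPM and Aarsd1 at 3.93 ± 0.361 TPM. Mtfmt, which formylates the initiator tRNA of mitochondria, was at 1.76 ± 0.0802 TPM. A comparison by structural class was made after the values were seen. The 10 cytosolic class II genes had a median of 19.3, 19.8 and 17.9 TPM in replicates 1, 2 and 3, and the 9 class I genes 11.0, 10.6 and 11.2 TPM. The medians of log2(TPM + 1) differed by 0.74 ± 0.10 (SD, n = 3), with class II higher in 3 of 3 libraries. Eprs, which joins both classes, was left out.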
